A study of Mus musculus with 12 samples.

Results

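Messenger RNA of 7 genes of γ-aminobutyric acid (GABA) metabolism and chloride transport was measured in mouse dorsal hippocampus on postnatal day 7. The genes were taken by symbol from a table of 52634 genes. They were Gad1 and Gad2 (synthesis), Slc32a1 (vesicle loading), Slc6a11 (uptake), Abat (breakdown), Slc12a2 and Slc12a5 (chloride import and export). SERTPyramid pups (SERTPyramid∆ in the sample titles), named for a deletion of the serotonin transporter gene Slc6a4 in pyramidal neurons, were set against SERTfl/fl control pups, which carry the floxed gene. The sources used here name neither the Cre driver nor the strain. There were 4 groups of 3 libraries: SERTPyramid and control labelled female, and SERTPyramid and control labelled male. Each library was made from the pooled dorsal hippocampi of 4 mice, and the 3 libraries of a group measure the spread between pools. The study's design text asks how the genotypes differ, and its title asks whether they do so differently in the sexes.

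GABA is made from glutamate by 2 decarboxylases. GAD67, the product of Gad1, supplies most GABA of the cell body, and GAD65, the product of Gad2, is concentrated at nerve endings. The vesicular transporter VGAT (Slc32a1) loads GABA into synaptic vesicles. Astrocytes clear it through GAT-3 (Slc6a11), and GABA transaminase (Abat) breaks it down. Whether GABA depolarises or hyperpolarises a neuron depends on its internal chloride. NKCC1 (Slc12a2) brings chloride in, KCC2 (Slc12a5) extrudes it, and in the rodent hippocampus KCC2 increases during early postnatal life while GABA turns from depolarising to hyperpolarising. NKCC1 is also abundant in the choroid plexus, the epithelium that secretes cerebrospinal fluid.

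Library totals were 18747249 to 25522347 counts, and the 7 genes had 985 to 10275 counts in a library. In 10 of the 12 libraries, 5 labelled female and 5 labelled male, transcripts of the X and Y chromosomes did not match the label. The exceptions were control replicate 1 of each labelled sex, so the words female and male below give labels only. By these transcripts each control group mixed both sexes, and each SERTPyramid group did not. Genotypes compared within a labelled sex therefore also differ in sex makeup. Control replicate 3 labelled female had 527 counts of Xist, of the X chromosome, beside 2849 of Y transcripts. Replicate 1 had 20646 and 1, and replicate 2 had 59 and 3059. Slc6a4 itself was nearly undetected, with 1 to 12 counts in SERTPyramid libraries and 0 to 17 in control libraries, and does not check the genotype at this depth. Choroid plexus markers differed widely between libraries, from 73.0 CPM (counts per 1000000 of the library total) summed over 10 genes in SERTPyramid replicate 3 labelled female to 2761 CPM in SERTPyramid replicate 1 labelled male. The tissue's own markers were present in every group. Slc17a7 and Neurod6 of pyramidal neurons lay above 1109 and 294 CPM, and Lhx6 and Sst of interneurons above 35.7 and 102 CPM. Pvalb, which interneurons express late in development, reached at most 0.641 CPM.

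Slc12a5 has 2 transcription starts in RefSeq, and the counts of the gene sum over both. The 250 bases before each start are shown because the windows differ in the motif CACGTG, 1 form of the E-box, printed here in capitals. Other forms of the E-box occur in both windows and are not marked. The sequences are from RefSeq, build GRCm38.p6, plus strand, 5′ to 3′.
Slc12a5 upstream start, chr2:164960596-164960845: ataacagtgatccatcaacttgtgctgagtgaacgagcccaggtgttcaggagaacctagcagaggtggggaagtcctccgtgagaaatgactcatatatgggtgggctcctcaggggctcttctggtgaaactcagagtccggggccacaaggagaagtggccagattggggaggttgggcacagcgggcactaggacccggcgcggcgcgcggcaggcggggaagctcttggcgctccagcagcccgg
Slc12a5 downstream start, chr2:164967738-164967987: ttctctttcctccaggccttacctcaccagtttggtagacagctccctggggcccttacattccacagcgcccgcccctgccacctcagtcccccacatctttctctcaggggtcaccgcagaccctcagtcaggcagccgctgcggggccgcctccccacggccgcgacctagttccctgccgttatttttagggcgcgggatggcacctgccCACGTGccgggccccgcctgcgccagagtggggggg
The downstream window holds 1 CACGTG, whose first base lies 36 bases before the start, and the upstream window holds 0. CACGTG reads the same on both strands, and 1978 of 32851 mouse promoter windows of the same length hold it (6.02%). The match is a description of these letters and not a binding site.

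Per kilobase of exon, the levels of the 7 genes had the same order in 12 of 12 libraries. The length used is that of all annotated exons of a gene, merged. By CPM alone the order was another one. In controls labelled female, Slc12a5 averaged 392 CPM and Slc6a11 328 CPM, and Gad1 averaged 124 CPM and Slc32a1 76.0 CPM. Per kilobase, Slc6a11 was highest, at 65.5 ± 1.98 CPM per kb (SD, n = 12 libraries). Slc12a5 followed at 52.8 ± 1.66 CPM per kb, Slc32a1 at 29.9 ± 2.50 and Abat at 21.7 ± 1.47. The decarboxylases came next, with Gad1 at 16.7 ± 0.842 CPM per kb and Gad2 at 13.9 ± 1.04. Slc12a2 was lowest at 5.04 ± 0.444 CPM per kb. Abat and Gad1 were the only neighbours in this order whose ranges over the libraries overlapped. Even so, Abat exceeded Gad1 in 12 of 12 libraries.

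The genes also differed in how steady they were. The SD of log2 CPM over the 12 libraries was 0.0524 for Slc12a5 and 0.0535 for Slc6a11. Of 10090 genes with a mean of at least 10 CPM, 13.1% had a smaller SD than Slc12a5 and 14.5% a smaller SD than Slc6a11. Gad1, with 0.0729, lay below the median SD of those genes, 0.0822. Abat (0.107), Gad2 (0.113), Slc32a1 (0.120) and Slc12a2 (0.123) lay above it, and 83.4% of the genes had a smaller SD than Slc12a2. The highest library exceeded the lowest 1.10-fold for Slc12a5 and 1.41-fold for Slc32a1.

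**Figure D1:**
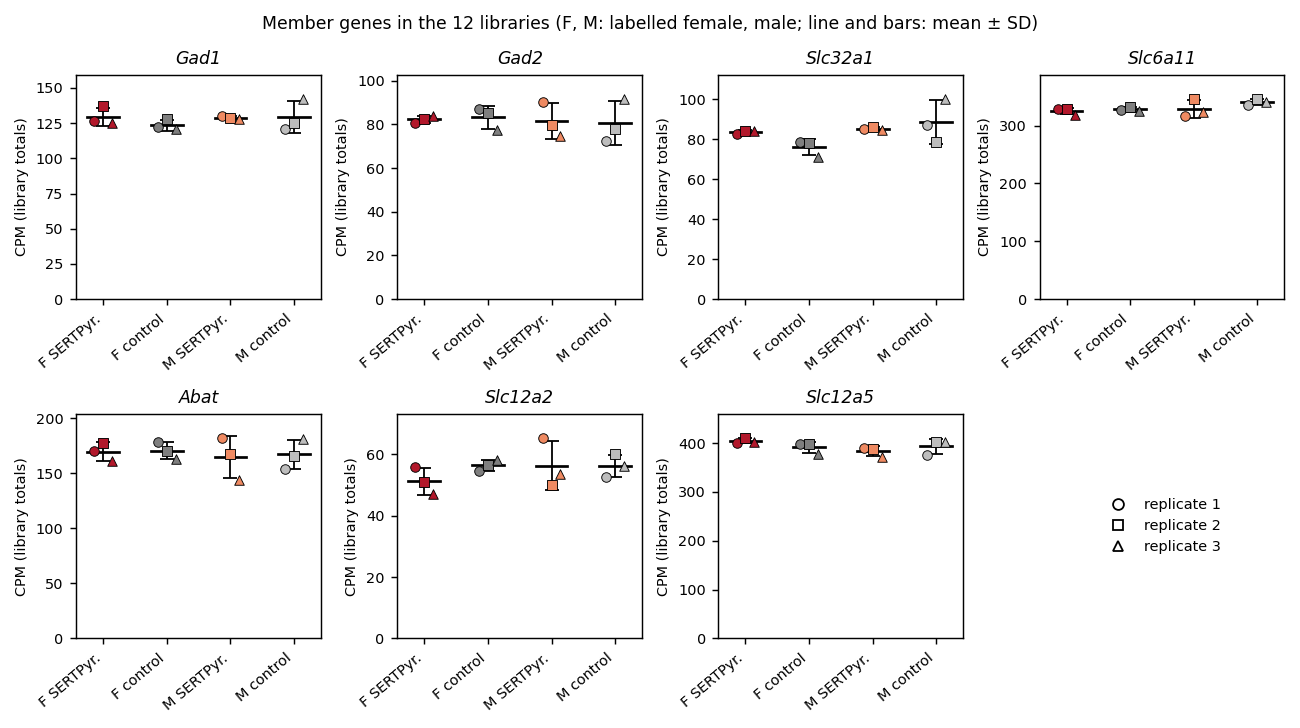
CPM (y axis, from 0) of the 7 genes in each library, by genotype and labelled sex, with replicate numbers as symbols and mean ± SD as line and bars (n = 3 per group). The genotypes lie close together for each gene. SERTPyramid libraries labelled female lie above controls without overlap for Slc32a1 and Slc12a5, as they do for 11.8% of the genes tested.

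None of the 7 genes passed the test for genotype in either labelled sex, for the difference between the labelled sexes or for their average. The test was edgeR's quasi-likelihood F test on all 12 libraries with Benjamini-Hochberg adjustment and a threshold of 0.05. The 7 log2 fold changes of SERTPyramid over control ran between −0.16 and 0.12 in libraries labelled female, with a median of −0.02. The 7 ran between −0.07 and 0.00 in libraries labelled male, with a median of −0.03. The medians over all genes tested were near 0.00 in both. Of 17631 genes tested, 0.0% passed in each of these 4 comparisons. At an unadjusted p under 0.05 edgeR counted 1417 genes in libraries labelled female (8.04%) and 558 in libraries labelled male (3.16%), and 0 of the 7 genes in both. The shares were 4.45% for the difference between the labelled sexes and 6.49% for their average, again with 0 of the 7 genes. Fewer cells of a type and less RNA per cell cannot be told apart in whole tissue, and this holds for every value here.

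Gad1, the decarboxylase of the cell body, had 127, 137 and 125 CPM in SERTPyramid libraries labelled female, against 122, 128 and 121 CPM in control libraries labelled female. Gad1 had 129.9, 128 and 128 CPM in SERTPyramid libraries labelled male, against 121, 125 and 142 CPM in controls. The groups overlapped in both labelled sexes, and control replicate 3 labelled male was the highest of all. For Gad1, the log2 fold change was 0.05 ± 0.06 (SE; 95% interval −0.07 to 0.17) in libraries labelled female and −0.02 ± 0.06 (−0.14 to 0.10) in libraries labelled male.

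Gad2, the decarboxylase of nerve endings, had 80.8, 82.5 and 84.0 CPM in SERTPyramid libraries labelled female, against 86.9, 85.4 and 77.2 CPM in controls. Gad2 had 90.4, 79.6 and 74.5 CPM in SERTPyramid libraries labelled male, against 72.2, 77.8 and 91.8 CPM in controls. The values labelled male spread widely in both genotypes, and the groups overlapped. For Gad2, the log2 fold change was −0.03 ± 0.09 (95% interval −0.22 to 0.16) in libraries labelled female and 0.00 ± 0.09 (−0.19 to 0.19) in libraries labelled male.

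The balance of the decarboxylases, taken as the ratio of Gad1 to Gad2 counts within a library, overlapped between genotypes as well. In libraries labelled female the ratio averaged 1.57 ± 0.0862 with SERTPyramid and 1.49 ± 0.0794 in controls (SD, n = 3 each; 2-sided exact permutation test, p = 0.40). Labelled male, the ratio averaged 1.59 ± 0.142 with SERTPyramid and 1.61 ± 0.0596 in controls (exact permutation p = 0.90). The smallest p this design allows is 0.10. Over both labelled sexes, the log2 difference was 0.03 (stratified exact permutation p = 0.60, with 0.005 the smallest possible).

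Slc32a1, which fills vesicles with GABA, had 82.7, 84.3 and 84.1 CPM in SERTPyramid libraries labelled female, against 78.6, 78.2 and 71.3 CPM in controls. Every SERTPyramid library labelled female lay above every control, as for 11.8% of the genes tested. Slc32a1 had 85.2, 86.3 and 84.8 CPM in SERTPyramid libraries labelled male, against 87.4, 78.7 and 100.4 CPM in controls, and the groups overlapped. For Slc32a1, the log2 fold change was 0.12 ± 0.07 (95% interval −0.03 to 0.27; edgeR adjusted p = 0.702) in libraries labelled female and −0.07 ± 0.07 (−0.22 to 0.08) in libraries labelled male. The difference between these, 0.19 ± 0.10 (95% interval −0.02 to 0.40), did not pass (edgeR adjusted p = 0.999).

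Interneuron markers, 16 genes such as Dlx1 and Lhx6, overlapped between the genotypes in their summed level. This sum had a lowest, median and highest value of 513, 528 and 549 CPM in SERTPyramid libraries labelled female, against 495, 523 and 534 CPM in controls. The sum labelled male was 506, 509.9 and 530.0 CPM with SERTPyramid, against 525, 531 and 545 CPM in controls. In the fit of all 12 libraries 0 of the 16 passed edgeR. With libraries labelled female fitted alone, 1 of the 16 passed, Erbb4, beside 2.43% of all genes tested (log2 fold change −0.19, adjusted p = 0.0231). Erbb4 had 49.2 to 50.2 CPM in SERTPyramid libraries labelled female, against 54.4 to 57.1 CPM in controls. No interneuron marker was at 0 in a whole group, and their part in the values of Gad1, Gad2 and Slc32a1 was not tested.

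Slc6a11, the astrocytic GABA transporter, had 329, 328 and 319 CPM in SERTPyramid libraries labelled female, against 328, 333 and 325 CPM in controls. Slc6a11 had 316, 347 and 324 CPM in SERTPyramid libraries labelled male, against 336, 346 and 341 CPM in controls. These values overlapped in both labelled sexes. For Slc6a11, the log2 fold change was −0.03 ± 0.05 (95% interval −0.13 to 0.07) in libraries labelled female and −0.06 ± 0.05 (−0.17 to 0.04) in libraries labelled male. The sum of 11 astrocyte markers overlapped too, at 3721 to 3797 CPM in SERTPyramid libraries labelled female against 3681 to 4066 CPM in controls. That sum labelled male was 3438 to 3989.5 CPM with SERTPyramid against 3385 to 3820.3 CPM in controls, and its part in the Slc6a11 values was not tested. Single markers went both ways in libraries labelled female. With libraries labelled female fitted alone, 2 of the 11 passed edgeR, beside 2.43% of all genes tested. They were Gfap (log2 fold change 0.16, adjusted p = 0.0240) and Fgfr3 (0.19, adjusted p = 0.0231). At an unadjusted p under 0.05 edgeR counted 5 of the 11 in that fit, beside 13.9% of all genes tested. Of these, 2 were higher and 3 lower, the latter Aqp4, Slc1a2 and S100b. With libraries labelled male fitted alone, 10 of the 11 lay above 0 and 0 passed. In the fit of all 12 libraries 0 of the 11 passed.

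Abat, the transaminase, had 170.2, 178 and 161 CPM in SERTPyramid libraries labelled female, against 178, 170.0 and 163 CPM in controls. Abat had 182, 168 and 144 CPM in SERTPyramid libraries labelled male, against 154, 166 and 181 CPM in controls. Both SERTPyramid and control libraries labelled male covered nearly the same range. For Abat, the log2 fold change was −0.02 ± 0.08 (95% interval −0.20 to 0.15) in libraries labelled female and −0.03 ± 0.08 (−0.21 to 0.14) in libraries labelled male.

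Slc12a2, the chloride importer, had 55.8, 51.0 and 47.0 CPM in SERTPyramid libraries labelled female, against 54.6, 56.5 and 58.2 CPM in controls. Replicates 2 and 3 of SERTPyramid lay below every control, and replicate 1 lay among them. Slc12a2 had 65.3, 50.1 and 53.5 CPM in SERTPyramid libraries labelled male, against 52.5, 59.9 and 56.0 CPM in controls, and SERTPyramid replicate 1 was the highest of the 12 libraries. For Slc12a2, the log2 fold change was −0.16 ± 0.08 (95% interval −0.33 to 0.02; edgeR adjusted p = 0.672) in libraries labelled female and −0.01 ± 0.08 (−0.19 to 0.16) in libraries labelled male. The difference between these was −0.14 ± 0.12 (95% interval −0.39 to 0.10; edgeR adjusted p = 0.999).

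Choroid plexus markers moved with Slc12a2 at the ends of its range. Their sum over 10 genes was 1408, 839 and 73.0 CPM in SERTPyramid libraries labelled female, against 1119, 1455 and 1094 CPM in controls. Labelled male, the sum was 2761, 547 and 1334 CPM with SERTPyramid, against 2018, 1343 and 1423 CPM in controls. The 3 libraries lowest in Slc12a2 were the 3 lowest in choroid markers, in the same order, and the highest library was the same for both. The middle of the range went apart, since control replicate 1 labelled male ranked 4 of 12 for Slc12a2 and 11 for the markers. All 10 markers had a log2 fold change below 0 in libraries labelled female, with a median of −0.52, and 0 passed the edgeR test. None of the 10 was at 0 in a whole group, and their part in the Slc12a2 values was not tested. Without the libraries lowest and highest in these markers, the Slc12a2 log2 fold change was −0.10 (edgeR adjusted p = 0.728) in libraries labelled female and −0.13 (adjusted p = 0.931) in libraries labelled male. These libraries were also the lowest and highest in Slc12a2, so leaving them out shifts its values whatever the markers contribute.

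**Figure D2:**
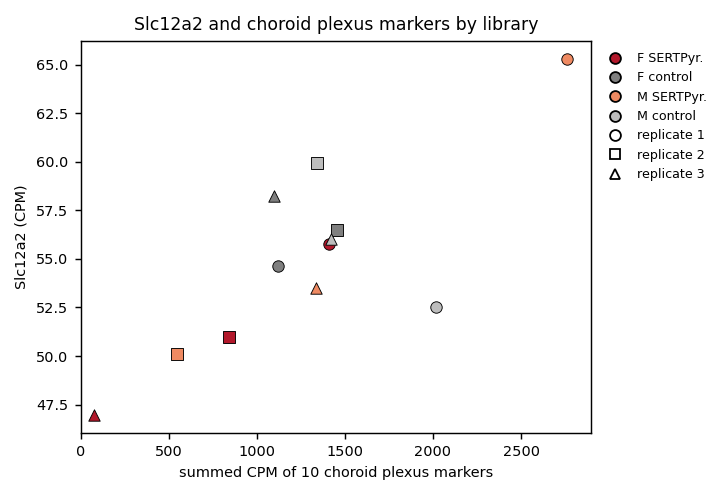
Slc12a2 (y axis, CPM) against the summed level of 10 choroid plexus markers (x axis, CPM) in the 12 libraries, coloured by genotype and labelled sex. SERTPyramid replicate 3 labelled female (73.0 CPM of markers) and SERTPyramid replicate 1 labelled male (2761 CPM) are the lowest and highest on both axes.

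Slc12a5, the chloride exporter, had 400.3, 411 and 403 CPM in SERTPyramid libraries labelled female, against 398, 398 and 379 CPM in controls. All SERTPyramid libraries labelled female lay above all controls, by a margin smaller than the spread of the controls. Slc12a5 had 390.1, 389 and 372 CPM in SERTPyramid libraries labelled male, against 375, 403 and 402 CPM in controls, and the groups overlapped. For Slc12a5, the log2 fold change was 0.03 ± 0.05 (95% interval −0.07 to 0.13) in libraries labelled female and −0.05 ± 0.05 (−0.15 to 0.06) in libraries labelled male. Both intervals are among the narrowest of the 7 genes. In all, 2 of the 7 genes, Slc32a1 and Slc12a5, did not overlap between genotypes in libraries labelled female, both higher with SERTPyramid, where 11.8% of the genes tested were higher without overlap and 6.99% lower. The count labelled male was 0 of 7, beside 4.09% of the genes tested higher and 2.66% lower.

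**Figure D3:**
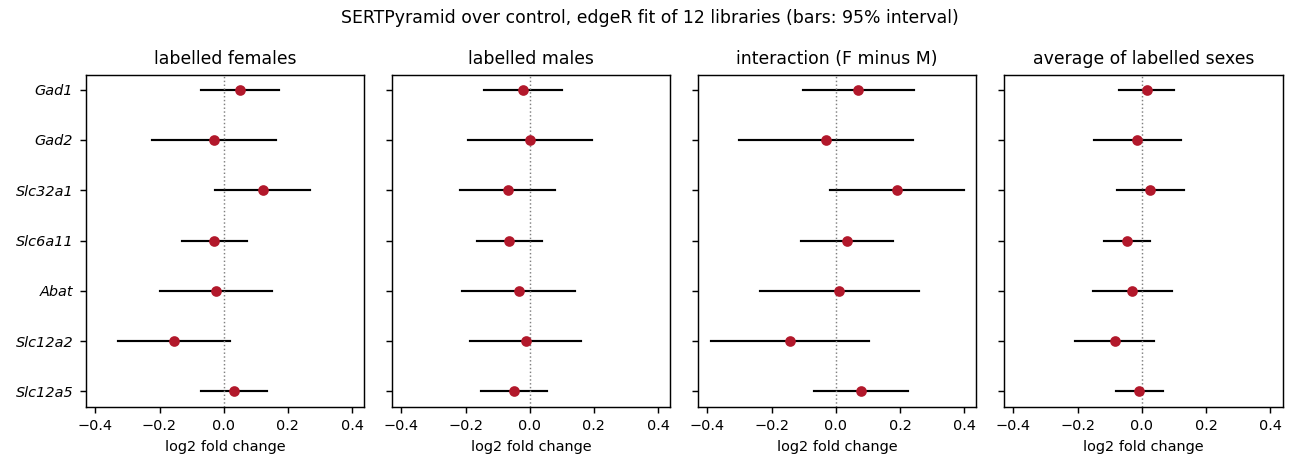
Log2 fold changes of SERTPyramid over control (x axis) of the 7 genes, with 95% intervals from edgeR's quasi-likelihood fit of the 12 libraries (n = 3 per group), in libraries labelled female and labelled male. Every interval includes 0, and the lowest estimate is −0.16 for Slc12a2 in libraries labelled female.

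The ratio of Slc12a5 to Slc12a2 counts within a library needs no scaling between libraries. It compares 2 messenger RNAs in whole tissue and does not measure chloride transport. The ratio was 5.97 to 8.58 with a median of 7.15. Corrected for exon length it was 8.76 to 12.6, so that KCC2 messenger RNA exceeded NKCC1 messenger RNA per kilobase in every library at postnatal day 7. The ratio of counts was 7.18, 8.06 and 8.58 in SERTPyramid libraries labelled female, against 7.29, 7.04 and 6.50 in controls. Replicates 2 and 3 of SERTPyramid lay above every control and replicate 1 lay below control replicate 1, so the groups overlapped. It was 5.97, 7.76 and 6.96 in SERTPyramid libraries labelled male, against 7.13, 6.72 and 7.18 in controls, and both the highest and the lowest value belonged to SERTPyramid.

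The ratio overlapped between the genotypes in both labelled sexes, and within a labelled sex the design cannot reach a p of 0.05. It averaged 7.94 ± 0.710 in SERTPyramid libraries labelled female and 6.94 ± 0.401 in controls (SD, n = 3 each), a log2 difference of 0.19 (2-sided exact permutation test, p = 0.20, with 0.10 the smallest possible). The average was 6.90 ± 0.897 in SERTPyramid libraries labelled male and 7.01 ± 0.256 in controls, a log2 difference of −0.03 (exact permutation p = 0.80, with 0.10 the smallest possible). Over both labelled sexes the log2 difference was 0.08 (stratified exact permutation p = 0.34), and the difference between the labelled sexes was 0.22 (exact permutation p = 0.16), with 0.005 the smallest p possible in both. Genotype was permuted within each labelled sex, so both p-values refer to no effect of genotype in either labelled sex. Without the libraries lowest and highest in choroid markers the log2 difference was 0.13 in libraries labelled female and 0.07 in libraries labelled male. These libraries also held the highest and lowest ratio, so leaving them out shifts the ratio whatever the markers contribute.

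**Figure D4:**
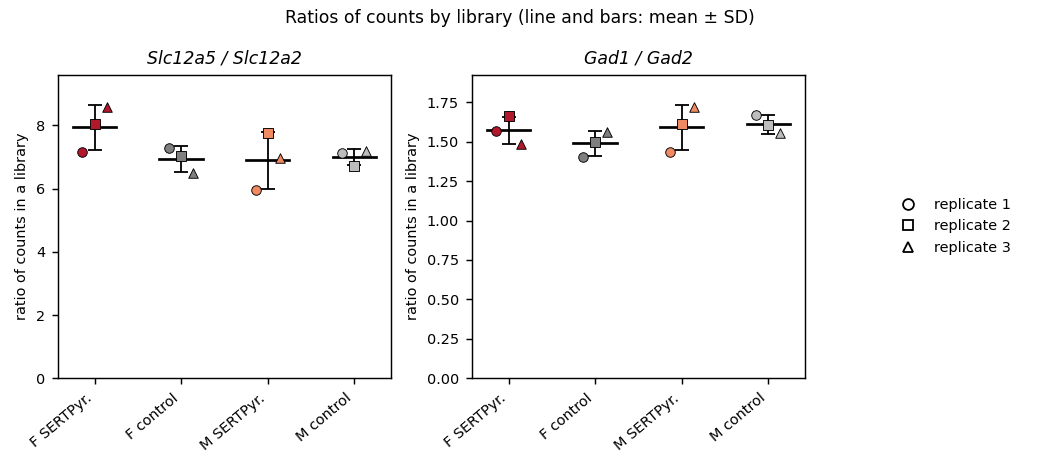
Ratio of Slc12a5 to Slc12a2 counts and of Gad1 to Gad2 counts (y axes, from 0) in each library, by genotype and labelled sex, with mean ± SD (n = 3 per group). SERTPyramid libraries labelled female reach 8.58 for Slc12a5 to Slc12a2, against at most 7.29 in controls, and the groups overlap in every panel.

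When libraries labelled female were fitted without those labelled male, the spread between libraries was estimated from 6 libraries and 415 of 17108 genes passed the edgeR test (2.43%), with 13.9% at an unadjusted p under 0.05. None of the 7 genes passed, and 2 of the 7, Slc12a2 (lower with SERTPyramid) and Slc32a1 (higher), had an unadjusted p under 0.05. Slc12a2 had a log2 fold change of −0.15 ± 0.05 (edgeR adjusted p = 0.125) and Slc32a1 of 0.12 ± 0.04 (adjusted p = 0.168). SERTPyramid replicate 1 lay among the controls for Slc12a2. With this replicate left out as well, Slc12a2 fell by 0.21 on the log2 scale (edgeR adjusted p = 0.0260), and 464 of 17278 genes passed. Leaving out the SERTPyramid library that lay among the controls enlarges the fall, so this p is no test of Slc12a2. Slc12a2 passed with only 1 of the 6 libraries left out. The replicate left out had 1408 CPM of choroid plexus markers, against 839 and 73.0 CPM in SERTPyramid replicates 2 and 3. Over the 6 libraries left out in turn the log2 fold change of Slc12a2 was −0.21 to −0.11. With libraries labelled male fitted alone, 0 of 17049 genes passed by edgeR, with 317 at an unadjusted p under 0.05 (1.86%).

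Other genes of the same pathways were taken from 5 lists of 40 genes, of which 38 had enough counts to be tested. In the fit of all 12 libraries 0 of the 38 passed in any of the 4 comparisons. At an unadjusted p under 0.05, edgeR counted 6 of the 38 in libraries labelled female, 2 higher and 4 lower with SERTPyramid, beside 8.04% of all genes tested. It counted 1 in libraries labelled male, which was higher, beside 3.16%. For the difference between the labelled sexes it counted 6 of the 38, 3 above 0 and 3 below, beside 4.45%. For the average of the labelled sexes it counted 3 of the 38, 2 higher and 1 lower, beside 6.49%.

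Among the other genes of GABA transport and breakdown, 4 of 4 were tested, and the median log2 fold change was 0.01 in both labelled sexes. Slc6a13, the GABA transporter GAT-2 known from meninges and vessels, averaged 12.9 ± 0.581 CPM with SERTPyramid and 10.5 ± 1.25 CPM in controls labelled female (SD, n = 3 each), with a log2 fold change of 0.28 ± 0.14 (edgeR adjusted p = 0.640). Aldh5a1, which oxidises the product of Abat, had log2 fold changes of −0.04 ± 0.05 in libraries labelled female and −0.08 ± 0.05 in libraries labelled male. Slc6a12, the betaine and GABA transporter, was at 1.43 ± 0.213 CPM in SERTPyramid libraries labelled female and 1.46 ± 0.473 CPM in controls, too low for a precise estimate.

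The 9 genes that supply glutamine and glutamate had median log2 fold changes of −0.01 in libraries labelled female and 0.02 in libraries labelled male. Glud1, glutamate dehydrogenase, averaged 307 ± 6.24 CPM with SERTPyramid and 331 ± 6.60 CPM in controls labelled female (log2 fold change −0.12 ± 0.05; edgeR adjusted p = 0.576). Glud1 had 0.06 ± 0.05 in libraries labelled male, of the opposite sign. Gls2, a glutaminase, averaged 6.60 ± 0.601 CPM with SERTPyramid and 5.41 ± 0.352 CPM in controls labelled male (0.27 ± 0.12; edgeR adjusted p = 0.999). The glutamine transporters Slc38a3 in libraries labelled female (0.05 ± 0.05) and Slc38a2 in libraries labelled male (−0.07 ± 0.06) came next by p.

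The putrescine route makes GABA from polyamines without GAD. Its 5 genes had median log2 fold changes of −0.05 in libraries labelled female and 0.03 in libraries labelled male. Sat1, which acetylates polyamines, had −0.15 ± 0.07 in libraries labelled female (edgeR adjusted p = 0.621), and Odc1, which makes putrescine, −0.05 ± 0.07. The aldehyde dehydrogenases of the route had log2 fold changes of −0.17 ± 0.11 for Aldh1a1 in libraries labelled female and −0.07 ± 0.06 for Aldh9a1 in libraries labelled male.

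Among 11 other chloride transport genes, Slc12a1 and Slc12a3 had too few counts to be tested, and the median log2 fold change of the rest was 0.01 in libraries labelled female and 0.00 in libraries labelled male. Slc12a9, a member of the cation-chloride cotransporter family, averaged 52.4 ± 0.797 CPM in SERTPyramid libraries labelled female and 45.1 ± 0.689 CPM in controls. Those groups did not overlap, nor did those of Clcn2 labelled female, and 11.8% of all genes tested were likewise higher without overlap. Another gene of this list was lower without overlap in libraries labelled female, beside 6.99% of all genes tested. Slc12a9 averaged 46.6 ± 3.12 CPM in SERTPyramid libraries labelled male and 46.1 ± 1.57 CPM in controls. Its log2 fold change in the fit of all libraries was 0.20 ± 0.05 in libraries labelled female (edgeR adjusted p = 0.530) and 0.00 ± 0.05 in libraries labelled male. Clcn2, a voltage-gated chloride channel of neurons and glia, averaged 50.7 ± 2.46 CPM with SERTPyramid and 43.1 ± 1.66 CPM in controls labelled female. Clcn2 averaged 43.7 ± 7.48 CPM in SERTPyramid libraries labelled male and 39.2 ± 5.75 CPM in controls. Slc4a3, a chloride and bicarbonate exchanger, had log2 fold changes of 0.11 ± 0.05 in libraries labelled female and −0.08 ± 0.05 in libraries labelled male. Slc4a10, a bicarbonate transporter of neurons, had −0.11 ± 0.08 in libraries labelled male.

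In the fit of libraries labelled female alone, 2 of the 38 genes passed, Slc12a9 and Clcn2, both higher with SERTPyramid, beside 2.43% of all genes tested. At an unadjusted p under 0.05 edgeR counted 10 of the 38, 5 higher and 5 lower with SERTPyramid, beside 13.9%. Slc12a9 rose by 0.20 ± 0.05 on the log2 scale (edgeR adjusted p = 0.0191) and Clcn2 by 0.22 ± 0.05 (adjusted p = 0.0265). Clcn2 did not pass by DESeq2 (adjusted p = 0.0503) or limma voom (adjusted p = 0.0515). Both calls depended on single libraries. Slc12a9 no longer passed edgeR without control replicate 1 (adjusted p = 0.0660), control replicate 2 (0.0990) or SERTPyramid replicate 2 (0.114). Clcn2 no longer passed edgeR without control replicate 1 (adjusted p = 0.136), control replicate 2 (0.0841), SERTPyramid replicate 2 (0.111) or SERTPyramid replicate 3 (0.126).

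The regulators of the cotransporters, 11 kinases, partners and transcription factors, had 2 log2 fold changes above 0 and 9 below 0 in libraries labelled female, with a median of −0.06. In libraries labelled male 7 lay above 0 and 4 below, with a median of 0.01. The paired kinases SPAK (Stk39) and OSR1 (Oxsr1), which phosphorylate NKCC1 and KCC2 downstream of the WNK kinases, lay on opposite sides of 0. Stk39 averaged 59.7 ± 1.63 CPM with SERTPyramid and 64.6 ± 1.29 CPM in controls labelled female (log2 fold change −0.13 ± 0.05; edgeR adjusted p = 0.544). Oxsr1 averaged 63.6 ± 2.10 CPM with SERTPyramid and 56.2 ± 2.83 CPM in controls labelled female (0.16 ± 0.05; edgeR adjusted p = 0.530). In libraries labelled male they had 0.05 ± 0.05 for Stk39 and −0.01 ± 0.05 for Oxsr1. Neto2, an auxiliary protein of kainate receptors that also binds KCC2, had −0.13 ± 0.05 in libraries labelled female and −0.08 ± 0.05 in libraries labelled male. Wnk2 had −0.08 ± 0.06 in libraries labelled male.

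**Figure D5:**
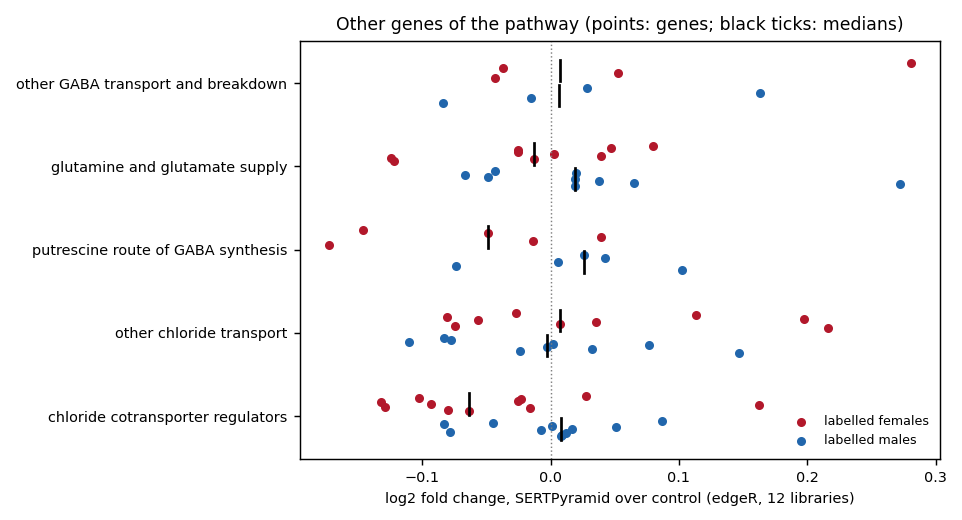
Log2 fold changes of SERTPyramid over control (x axis) for the tested genes of 5 pathway lists, each point a gene, in libraries labelled female and labelled male, from edgeR's fit of the 12 libraries. Points scatter around 0 in each list, and the regulators labelled female have 9 of 11 points below 0.

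The genes most like each of the 7 over the 12 libraries are given as a description, by Pearson r of log2 CPM over 10090 genes. The points share library, depth and tissue makeup. The 3 highest r of 10090 genes over 12 libraries are high through the search itself, also for unrelated genes. Gad1 ran closest to Grm4 (r = 0.870), Rpgrip1l (0.850) and Zic2 (0.844), and Gad2 to Dnal1 (0.904), Kcnn3 (0.896) and the astrocyte connexin Gja1 (0.877). Slc32a1 ran closest to Slc46a1 (0.911), Zfp710 (0.841) and Rgs3 (0.838), and Slc6a11 to Wars (0.959), Fto (0.953) and Tmem229b (0.931). Abat ran closest to Tnr (0.939), Slc4a8 (0.923) and Igsf9b (0.919), and Slc12a5 to Adar (0.939), Mtor (0.890) and Kif1a (0.889). Slc12a2 ran closest to Fnip1 (0.916), Rif1 (0.895) and Trpm3 (0.890). Among the 7 genes themselves, Gad2 and Abat were most alike (0.854). No member was among the 3 genes nearest to another.

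On build GRCm38, annotated by GENCODE M21, all 7 genes are protein-coding and lie on the plus strand. Gad2 (chr2:22622205-22693874), Gad1 (chr2:70553072-70602014), Slc32a1 (chr2:158610767-158615748) and Slc12a5 (chr2:164960802-164999731) share chromosome 2. Slc6a11 lies at chr6:114131241-114249952, Abat at chr16:8513429-8621568 and Slc12a2 at chr18:57878678-57946821. The library kit does not mark strand, so reads of a gene and an overlapping antisense gene cannot be told apart. Gad1os, antisense to Gad1, had 6 to 16 counts, against at least 2262 for Gad1.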

How the data were processed

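Messenger RNA libraries came from a TruSeq v2 kit, per the labels, a chemistry that keeps no strand information. The deposited table holds whole-number counts of reads per gene, and its build is mm10, per the submitters' processing notes. The aligner, the counting settings and the annotation were not given in the sources used here. The table has 0 rows that name no gene and 0 columns mapped to no sample.

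The 7 genes, the pathway lists and the marker lists were chosen with earlier results of these data known. CPM is counts per 1000000 of the library total, and a count of 0 allows up to 3 counts, or 0.118 to 0.160 CPM (counting error only). Genes kept by filterByExpr were scaled by TMM and tested with edgeR 4.0.16 (quasi-likelihood, robust) in R 4.3.3, with 4 groups in 1 fit and Benjamini-Hochberg adjustment over all genes tested. SE was taken as log2 fold change divided by √F. Nothing in the labels says that the pools came from separate litters, so the p-values cover differences between these pools, which may be technical. Ratios were compared by exact permutation. The fits were tested on simulated data.

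Named pathway genes are those that passed, plus the 3 of smallest p per list in each labelled sex, except items not reported here. Likeness is Pearson r of log2 CPM (prior count 2) over genes with a mean of at least 10 CPM. Alternatives were unfiltered genes, genes with at least 1 CPM in 6 libraries, RLE scaling, DESeq2 1.42.0, limma 3.58.1 voom, each labelled sex alone, a replicate block and left-out libraries. Leaving out the libraries extreme in choroid plexus markers, and the alternatives within labelled-female libraries alone, were chosen after seeing the data. The libraries extreme in these markers were also the lowest and highest in Slc12a2.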

Additional observations from a re-analysis of the deposited data

How the results depend on the processing

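Over 574 alternative values of the 7 genes in the 4 comparisons, 0 had an adjusted p under 0.05 (lowest 0.125) and 48 had the opposite sign. These do not count the alternatives within libraries labelled female alone, where Slc12a2 passed edgeR without SERTPyramid replicate 1 (−0.21, adjusted p = 0.0260). SERTPyramid replicate 1 lay among the controls for Slc12a2, so this p is no test of the gene. Without that replicate 464 of 17278 genes passed. The number of genes passing in libraries labelled female was 0 by edgeR, 103 with no filter on low counts, 1 by DESeq2, 415 with libraries labelled female fitted alone, and 0 to 2 with each library left out. In libraries labelled male it was 5 with no filter and 0 with any library left out. The interaction gave 14 with no filter, 1 by DESeq2 and 0 with any library left out. The average gave 66 with no filter and 0 to 144 with a library left out, the 144 without SERTPyramid replicate 2 labelled male, which also gave the 2 above. The cause was not tested.

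Replicate numbers are shared by the groups, but same-numbered libraries did not deviate together: 2 of 18 pairs correlated above 0.1, and 2 of 12 libraries correlated best with their own number. With the replicate block 0 genes passed in each of the 4 comparisons. Among libraries labelled female alone the block gave 689 in place of 415, and leaving out a library gave 136 to 464, with 251, 158 and 136 without control replicate 1, control replicate 2 and SERTPyramid replicate 2. In that fit Clcn2 ran from 0.17 to 0.26 on the log2 scale with a library left out, and Slc12a9 from 0.19 to 0.21.

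The log2 fold change of Gad2 in libraries labelled male was −0.0011 with RLE scaling, −0.00025 by DESeq2 and −0.043 by limma voom, and its interaction was 0.021 by limma voom. Without control replicate 1 of both labelled sexes, Gad2 was 0.0069 in libraries labelled female, −0.072 in libraries labelled male and 0.079 for the interaction, Abat was 0.014 in libraries labelled female, the averaged Gad1 was −0.012, and the Gad1 to Gad2 ratio was 0.0063 in libraries labelled male. Without the libraries lowest and highest in choroid plexus markers, Abat was 0.0064 in libraries labelled female, Gad2 was −0.075 in libraries labelled male and 0.025 for the interaction, and the Slc12a2 interaction was 0.025. The log2 difference of the ratios in libraries labelled male was then 0.069 for Slc12a5 to Slc12a2 and 0.050 for Gad1 to Gad2. The difference of medians of the Gad1 to Gad2 ratio in libraries labelled male was 0.0073.

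With each library left out in turn, log2 fold changes in libraries labelled female ran from −0.079 to 0.0068 for Gad2 and from −0.056 to 0.014 for Abat. In libraries labelled male they ran from −0.069 to 0.062 for Gad1, −0.075 to 0.11 for Gad2, −0.15 to 0.037 for Slc32a1, −0.11 to 0.064 for Abat and −0.13 to 0.052 for Slc12a2. The interaction ran from −0.0095 to 0.12 for Gad1, −0.14 to 0.048 for Gad2, −0.088 to 0.087 for Abat and −0.21 to −0.025 for Slc12a2. The average ran from −0.0085 to 0.058 for Gad1, −0.051 to 0.043 for Gad2, −0.020 to 0.081 for Slc32a1, −0.064 to 0.020 for Abat and −0.025 to 0.0083 for Slc12a5. Within libraries labelled female alone, Gad2 ran from −0.079 to 0.0023, Abat from −0.055 to 0.0097 and Slc12a2 from −0.21 to −0.11. The ratios ran from −0.12 to 0.069 for Slc12a5 to Slc12a2 in libraries labelled male, and for Gad1 to Gad2 from −0.079 to 0.050 in libraries labelled male and −0.00090 to 0.064 over both. The 7 genes had at least 985 counts in each library.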
